A study of Mus musculus with 8 samples.

Results

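Basal-like cells in S phase made up 285 of the 1100 cells kept from 3 single-cell RNA-sequencing libraries of PyMT mammary tumor organoids. They were chosen by their UMIs, the unique molecular identifiers that count each captured RNA molecule once. A cell was basal-like if its log2 ratio of the luminal keratins Krt8 and Krt18 to the basal keratins Krt5 and Krt14, with 1 UMI added to each sum, was not in the top 25% of all kept cells. It was cycling if its UMIs of 6 S-phase genes (Mcm3, Mcm5, Mcm6, Pcna, Rrm2 and Tyms) and 6 G2 or M genes (Top2a, Cdk1, Ccnb1, Ube2c, Cenpf and Birc5), per 10000 UMIs of the cell, lay above the lowest 33.3% of cells. Basal-like cycling cells below the median log2 ratio of the G2 or M sum to the S sum, again with 1 UMI added, were taken as S-phase cells, and the other 286 are called G2 or M cells here. The genes of these sums chose the cells, so their values are given as a description and without a test.

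The organoids came from a mouse model carrying MMTV-PyMT, MMTV-Cre and Ecadherin-mCFP, in which the MMTV promoter drives the polyoma middle T oncogene and Cre in mammary epithelium, and all libraries share these alleles. SOX4, a transcription factor of the SOX family, was knocked out with CRISPR/Cas9, and every library is 1 organoid line grown for 4 days with FGF2. The libraries of single cells are GR17, from 1 control line, and GR18 and GR19, from 2 SOX4 KO lines. Bulk RNA was read from WT1 and WT3, which are 2 controls, and from H7, M4 and H4, which are 3 SOX4 KO lines. Genotype, line and library cannot be told apart in the single cells, which have 1 control library, so no p-value was computed from them and their intervals cover counting error only. The bulk libraries took no part in choosing the cells and are used below for tests. Sox4 RNA itself was 114, 86.0 and 94.3 CPM (counts per 1000000) in the S-phase cells of GR17, GR18 and GR19. Since the small insertion or deletion of the knockout lines can leave the transcript in place, this level does not check the labels.

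During S phase a cell copies its DNA once. Origins of replication are licensed when Cdc6 and Cdt1 load the MCM helicase, the sliding clamp Pcna holds the DNA polymerases at the fork, and ribonucleotide reductase and thymidylate synthase supply nucleotides. E2F transcription factors, released from the retinoblastoma protein by cyclin-dependent kinases, switch on many of these genes at the G1/S border. In the mammary gland, basal cells carry the keratins Krt5 and Krt14 and the factor Trp63, while luminal cells carry Krt8 and Krt18.

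S-phase cells took a larger share of the control library than of either SOX4 KO library. They were 125 of 369 kept cells in GR17, or 33.9% with an exact binomial 95% interval of 29.1 to 39.0%. GR18 had 87 of 369 cells (23.6%, 19.3 to 28.2%) and GR19 had 73 of 362 cells (20.2%, 16.2 to 24.7%). The control interval did not overlap that of either SOX4 KO library, whereas the intervals of the SOX4 KO libraries overlapped. With every cell thinned to 5000 UMIs before the cells were chosen, which left out 8, 4 and 4 shallower cells, the shares were 34.1%, 22.5% and 17.3%. Among cycling basal-like cells the S-phase share was 48.6% (42.4 to 54.9%) for GR17, 49.2% (41.6 to 56.8%) for GR18 and 53.3% (44.6 to 61.9%) for GR19, and these intervals overlapped. The phase cutoff was the median over the 3 libraries together, which fixed the pooled share, so these shares say little about differences in phase. The median phase ratio of G2 or M cells was 0.13 in GR17, 0.65 in GR18 and 0.76 in GR19. That of S-phase cells was -1.66, -1.87 and -1.75. The libraries also differed in the steps before the phase ratio. Basal-like cells that were cycling made up 82.6% of basal-like cells of GR17 (78.0 to 86.7%), 61.2% of those of GR18 (55.4 to 66.9%) and 60.9% of those of GR19 (54.2 to 67.3%). Basal-like cells were 84.3%, 78.3% and 62.2% of kept cells. All cutoffs were set over the 3 libraries together. When they were set within each library, an alternative chosen after seeing the data that fixes much of the share by its construction, the shares were 26.8%, 26.6% and 25.1%.

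**Figure D1:**
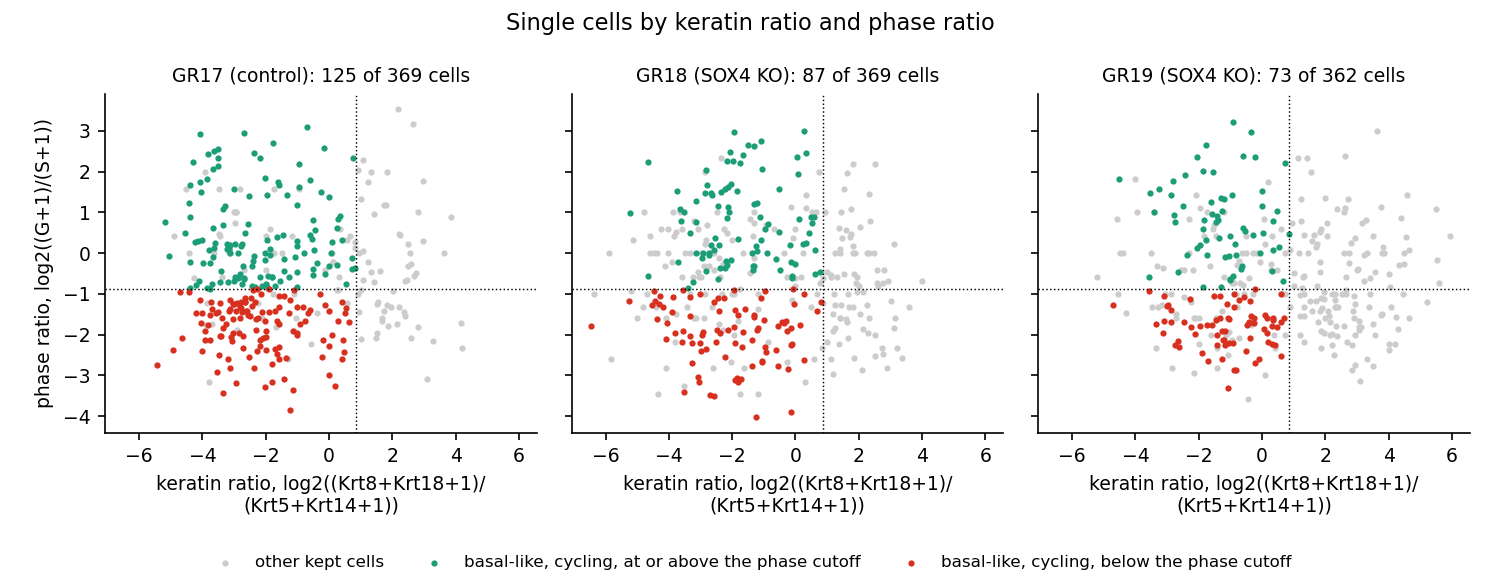
Each point is a kept cell, placed by its keratin ratio (horizontal axis, log2) and its ratio of G2 or M to S-phase gene UMIs (vertical axis, log2), with 1 panel per library and dotted lines at the cutoffs. The S-phase cells (red) number 125 in GR17, 87 in GR18 and 73 in GR19, and grey points left of the vertical line are basal-like cells below the cycling cutoff.

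The cutoffs lay within continuous ranges of cells. The keratin cutoff was 0.865, the cycling cutoff 12.5 UMIs per 10000 and the phase cutoff -0.869. The member nearest to the phase cutoff had a ratio of -0.871 and the nearest cell outside had -0.869. Of the 285 members 33 lay within 0.25 log2 units of that cutoff, and 32 G2 or M cells lay within the same distance on the other side. The median depth of the members was 20978 UMIs in GR17, 21911 in GR18 and 23924 in GR19. Mitochondrial genes took 11.1%, 11.4% and 14.4% of their UMIs, so GR19 had the highest share. With these genes and Rn45s left out, the counts of genes 2-fold apart and the medians of the S-phase and basal genes given below kept their direction, and the luminal median changed sign. Wells with over 2 times the median UMIs of their library, which may hold more than 1 cell, numbered 4, 9 and 0 among the members. All plates use the same 384 well barcodes, so shared barcodes say nothing about shared cells.

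The members carried Krt14, Krt5, Mcm5, Mcm6 and Pcna, genes of the rule whose presence was partly set by the choice of cells. Contractile genes of myoepithelial cells were nearly absent, and the basal keratin Krt17, given below, was low in both SOX4 KO libraries. Krt14 was at 1836 CPM in GR17, 1713 in GR18 and 1249 in GR19, and Krt5 at 2297, 2082 and 795 CPM. Krt8, a luminal keratin, was at 521, 562 and 628 CPM in the same cells, and 10, 5 and 15 of the members had more UMIs of the luminal than of the basal keratin pair. Acta2 (smooth muscle actin), Myh11 (smooth muscle myosin), Cnn1 and Tagln were each below 1 CPM in every library. "Basal-like" therefore stands here for the keratin ratio and not for contractile myoepithelial cells. Markers of immune, endothelial and stromal cells were near 0: the 6 of 15 listed genes found in the tables summed to 17.1, 9.40 and 10.9 CPM, and none reached 20 CPM on average. Mcm5, a helicase subunit, was at 354, 349 and 325 CPM, Mcm6 at 285, 279 and 293 CPM and Pcna at 985, 1064 and 1126 CPM.

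The S-phase cells stood apart from the G2 or M cells in replication genes that took no part in choosing them. These comparisons are descriptions, since the same cells were chosen on related genes. Cdc6, which loads the MCM helicase, was at 63.6 CPM in GR17, 63.9 in GR18 and 71.3 in GR19, against 11.5, 7.49 and 6.82 CPM in G2 or M cells. In basal-like cells below the cycling cutoff, called resting cells here, it was at 1.34, 3.23 and 2.59 CPM. The summed level of Cdc6 was thus highest in S-phase cells and lowest in resting cells in every library, although single cells overlapped, since the median S-phase cell had 0.48 to 0.71 UMIs of Cdc6 per 10000. Ccne1, the cyclin that activates Cdk2 at the G1/S border, was at 92.3, 64.4 and 80.5 CPM in S-phase cells and at 30.4, 16.5 and 21.1 CPM in G2 or M cells. Ung, which removes uracil from DNA, was at 117, 88.4 and 105 CPM against 27.6, 13.5 and 14.3 CPM. Of 85 listed S-phase genes outside the rule, 79 averaged at least 20 CPM, and 63 of these were higher in S-phase than in G2 or M cells in all 3 libraries, while 2 were lower in all 3. All 79 were higher than in resting cells in all 3 libraries, beside 2389 higher and 1562 lower of all 6262 genes at this level. Against G2 or M cells, 1483 of the 6262 were higher and 1206 lower in all 3 libraries.

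The lists differed in how sharply they separated S phase from G2 or M. The medians of the log2 difference were 0.79 for licensing, 0.78 for chromatin assembly and repair, 0.52 for the replication fork and 0.28 for nucleotide supply. Thymidine kinase (Tk1) was among those that did not separate: it was at 453, 548 and 474 CPM in S-phase cells and at 462, 569 and 447 CPM in G2 or M cells. The rule's own S genes summed to 2485, 2445 and 2490 CPM in S-phase cells, 1455, 1145 and 1281 CPM in G2 or M cells and 441, 374 and 372 CPM in resting cells. The 10 genes with the largest excess over G2 or M cells were Cdc6, Ung, Wdhd1, Dtl, Ccne1, Uhrf1, E2f1, Mcm10, Zmynd19 and Zfp367. Wdhd1 links the helicase to the polymerase, Dtl targets Cdt1 for destruction, Uhrf1 maintains DNA methylation and E2f1 is itself an activator at the G1/S border. At the other end stood Pif1, Aspm, Nusap1, Kif14, Cdc20, Prr11, Cenpe, Aurka, Ube2c and Plk1, several of which are known for their work on the mitotic spindle. Plk1, a mitotic kinase, was at 47.2, 40.9 and 31.0 CPM against 224, 265 and 231 CPM.

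**Figure D2:**
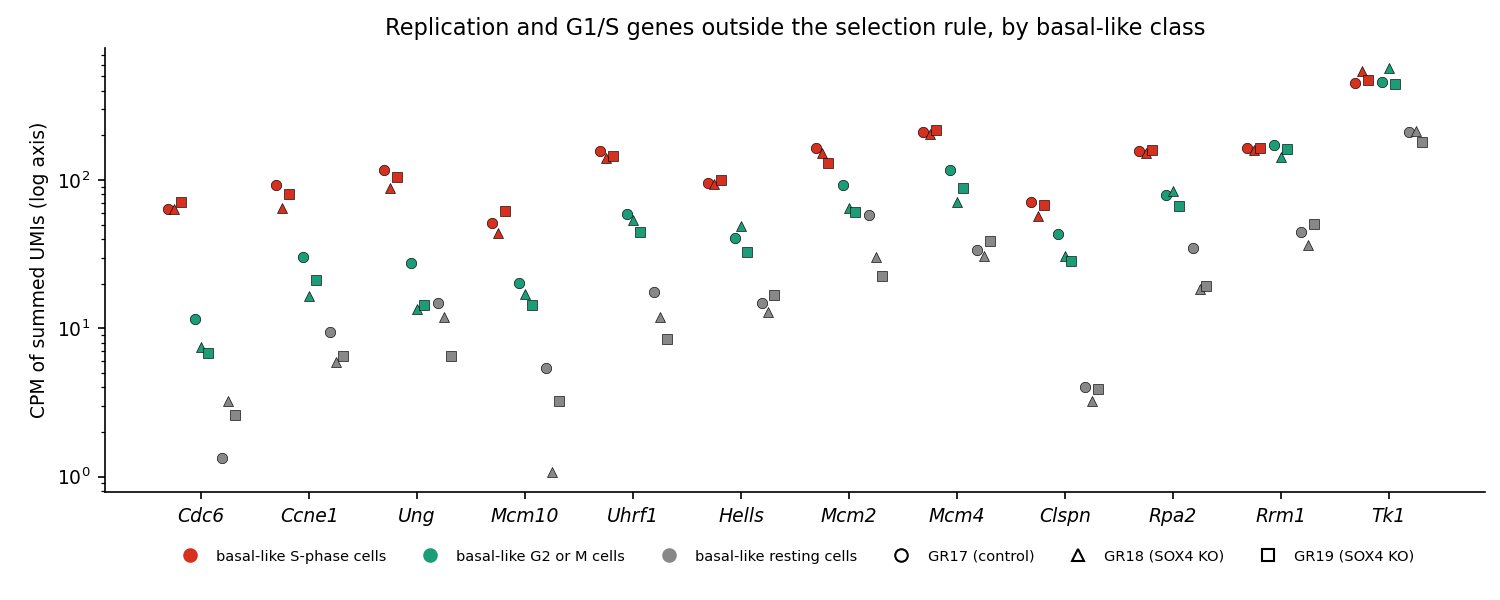
CPM of the UMIs summed over cells (vertical log axis) for 12 replication and G1/S genes outside the rule, in S-phase (red), G2 or M (green) and resting (grey) basal-like cells of each library (circle GR17, triangle GR18, square GR19). Cdc6 is at 63.6 to 71.3 CPM in S-phase cells and at 6.82 to 11.5 CPM in G2 or M cells, whereas Tk1 overlaps between these classes.

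Promoters of several of these genes hold the letters that E2F factors are known to prefer. The motifs TTTCCCGC, TTTCGCGC, TTTGCCGC and TTTGGCGC were searched on both strands in the 200 bases before each gene start of the RefSeq table (GRCm38.p6), and matches may overlap. At least 1 match was found for 11 of the 68 S-phase genes outside the rule that have a promoter in the table (16.2%), 2 of 6 rule S genes, 1 of 6 rule G2 or M genes, 1 of 19 other G2 or M genes and 0 of 10 basal genes. Among the other lists it was found for 6 of 14 G1/S regulators and 2 of 11 genes of ribosome and polyamine synthesis (18.2%). It was also found for 2 of 19 luminal genes and 1 of 11 brakes, so the share of the S-phase genes is not particular to them. The share was 1.83% of 27025 genes and 1.58% of all 32851 promoters. The promoters shown were picked among those that hold a match. Matches are in capitals, 5′ to 3′ on the strand of the gene. Mcm5 and Mcm6 are genes of the rule, and the bulk level of Hells is tested below. Cdc6 and Dtl are among the 10 genes with the largest excess over G2 or M cells, of which 4 hold a match. A match is a description of the letters and not a binding site.
Mcm5, chr8:75109309-75109508, plus strand: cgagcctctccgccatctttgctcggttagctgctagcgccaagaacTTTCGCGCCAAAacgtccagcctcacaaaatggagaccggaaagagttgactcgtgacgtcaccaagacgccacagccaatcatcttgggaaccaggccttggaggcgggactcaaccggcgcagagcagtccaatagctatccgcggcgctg
Mcm6, chr1:128359706-128359905, minus strand: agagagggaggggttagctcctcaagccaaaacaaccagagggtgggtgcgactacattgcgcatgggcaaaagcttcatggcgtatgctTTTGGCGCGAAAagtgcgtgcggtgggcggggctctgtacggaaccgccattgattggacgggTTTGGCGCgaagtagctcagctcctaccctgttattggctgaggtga
Cdc6, chr11:98907951-98908150, plus strand: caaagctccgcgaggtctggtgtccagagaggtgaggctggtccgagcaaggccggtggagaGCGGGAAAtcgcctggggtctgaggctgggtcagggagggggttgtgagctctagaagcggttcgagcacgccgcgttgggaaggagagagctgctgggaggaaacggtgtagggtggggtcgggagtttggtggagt
Dtl, chr1:191575545-191575744, minus strand: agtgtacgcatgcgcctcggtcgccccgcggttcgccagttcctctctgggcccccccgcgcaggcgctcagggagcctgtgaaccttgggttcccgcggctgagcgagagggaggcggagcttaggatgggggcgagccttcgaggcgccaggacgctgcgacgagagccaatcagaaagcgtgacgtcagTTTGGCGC
Hells, chr19:38930790-38930989, plus strand: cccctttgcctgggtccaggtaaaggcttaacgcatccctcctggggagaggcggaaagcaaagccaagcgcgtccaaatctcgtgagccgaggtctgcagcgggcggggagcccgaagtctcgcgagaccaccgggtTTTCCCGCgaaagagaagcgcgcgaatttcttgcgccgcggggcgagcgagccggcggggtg
Mcm5 has 2 overlapping matches and Mcm6 has 3, of which 2 overlap, while the other promoters shown have 1 each.

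Within S-phase cells the summed level of replication genes outside the rule was slightly below control in both SOX4 KO libraries. Since cells were chosen on the sums of related genes, this level is partly set by the choice. The 85 S-phase genes outside the rule summed to 9584 CPM in GR17, 9070 in GR18 and 8897 in GR19, ratios of 0.946 and 0.928 to control. Over all kept cells of every class the same genes summed to 7825, 6231 and 6026 CPM, ratios of 0.796 and 0.770. The SOX4 KO libraries were thus further below control over all cells than within the S-phase cells. The ratios for GR18 and GR19 were 0.841 and 0.815 in G2 or M cells and 0.790 and 0.750 in resting basal-like cells. In luminal-like cycling cells they were 1.05 and 0.981. How far the shares of the classes set the ratios over all cells was not tested. Of the 79 genes at 20 CPM or more in S-phase cells, 0 were at least 2-fold higher or lower in both SOX4 KO libraries. Over all 6262 genes, 84 (1.34%) were at least 2-fold higher in both and 23 (0.367%) at least 2-fold lower, a rule of size and not a test. With shares this small, 0 of 79 does not set the list apart from all genes. These counts were 153 and 52 with thinned cells, 48 and 13 with a pseudocount of 10, and 34 and 8 among genes at 50 CPM or more. The median difference of log2(CPM + 1) was -0.08 for these genes and 0.01 for all genes, and -0.22 for these genes with cutoffs set within each library. The mean of the 2 SOX4 KO differences lay between -0.67 and 0.65 for every gene at 20 CPM or more of the list, and 69 of 79 (87.3%) were within 1.5-fold of control in both SOX4 KO libraries, beside 79.4% of all genes.

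Over all genes, 39.4% were above and 36.3% below control in both SOX4 KO libraries, against which the counts of each list are to be read. By role, the nucleotide list lay lowest, with 12 of 19 genes below control in both SOX4 KO libraries, 3 above and a median of -0.18. Nme1, a nucleoside diphosphate kinase, was at 597, 384 and 363 CPM. Dut, which removes dUTP, was at 190, 141 and 112 CPM. For licensing, 8 of 15 genes were below control in both and 1 above, with a median of -0.13. Mcm7 was at 348, 263 and 279 CPM, whereas Mcm4 was at 212, 205 and 218 CPM. For the fork the median was -0.03, with 8 of 23 genes below and 3 above, and for chromatin and repair 0.01, with 10 of 22 below and 8 above. Pole2, a subunit of polymerase epsilon, was at 50.9, 72.9 and 79.9 CPM, and Slbp, which binds histone messengers in S phase, was at 110, 165 and 167 CPM. Blm and Brca2, both known from repair by homologous recombination, were at 21.4, 29.1 and 40.2 CPM and at 19.3, 26.8 and 34.5 CPM. These values rest on 59, 62 and 70 UMIs of Blm and 53, 57 and 60 UMIs of Brca2.

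Bulk organoids gave a test that the choice of cells did not touch, and there S-phase genes were lower in SOX4 KO lines. Whole organoids do not tell fewer cells in S phase from less RNA per cell. Of 84 S-phase genes outside the rule that passed the filter on low counts, 79 were lower in SOX4 KO lines. Their median change was -0.52 on the log2 scale, against 0.01 for all 11682 genes. At an adjusted p under 0.1 (edgeR quasi-likelihood test, Benjamini-Hochberg), 7 fell and 1 rose, beside 2.17% of all genes called lower and 4.1% called higher. In 43 of the 84 every SOX4 KO line lay below both control lines, beside 17.9% of all genes tested. Chaf1b, which places histones on new DNA, had normalized CPM of 26.7 and 30.5 in WT1 and WT3 and of 6.52, 12.6 and 7.66 in H7, M4 and H4. The groups did not overlap, and the log2 fold change was -1.70 ± 0.30 (SE; n = 2 control and 3 SOX4 KO lines; edgeR adjusted p = 0.0298). The other 6 that fell were Mcm2, Mcm7, Clspn (a checkpoint protein at the fork), Wdhd1, Rrm1 (the large subunit of ribonucleotide reductase) and Hells (a chromatin remodeler), by 0.73 to 1.43 on the log2 scale. Mthfd2, a mitochondrial enzyme of one-carbon metabolism, rose by 0.83 (edgeR adjusted p = 0.096). These calls rest on both control lines and were lost without WT1 or without WT3, where the median change was -0.54 and -0.44. Without H7, M4 or H4, edgeR called 3, 24 and 5 of the S-phase genes lower. Mcm7, Clspn, Wdhd1 and Rrm1 were each called in only 1 of 5 fits that leave out 1 line, and Mthfd2 in 0. DESeq2 called 8 lower. Nearly all bulk calls given by gene in the following paragraphs are likewise lost without WT1 or WT3, and those that are not are named. Some, such as Mcm5, Cd24a and Cited1, were also lost in a fit without a SOX4 KO line.

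Of the 6 S genes that chose the cells 3 fell in bulk. Mcm6 was at 80.5 and 81.1 CPM in WT1 and WT3 and at 36.5, 46.1 and 30.4 CPM in H7, M4 and H4, which is -1.11 ± 0.20 on the log2 scale (edgeR adjusted p = 0.0325). Mcm5 (-1.22, edgeR adjusted p = 0.0692) and Mcm3 (-1.05, edgeR adjusted p = 0.053) were called too. Pcna, Rrm2 and Tyms had log2 fold changes of -0.69, -0.79 and -0.78 and were not called. Of the 6 G2 or M genes of the rule 4 fell. Of 22 further G2 or M genes 8 fell and 14 were not called, with all 22 below 0. Over all 11682 genes tested, 2.17% were called lower and 5741 were below 0. In the single cells those 22 genes summed to 1252, 1218 and 1172 CPM in S-phase cells and to 2091, 1777 and 1681 CPM over all kept cells.

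**Figure D3:**
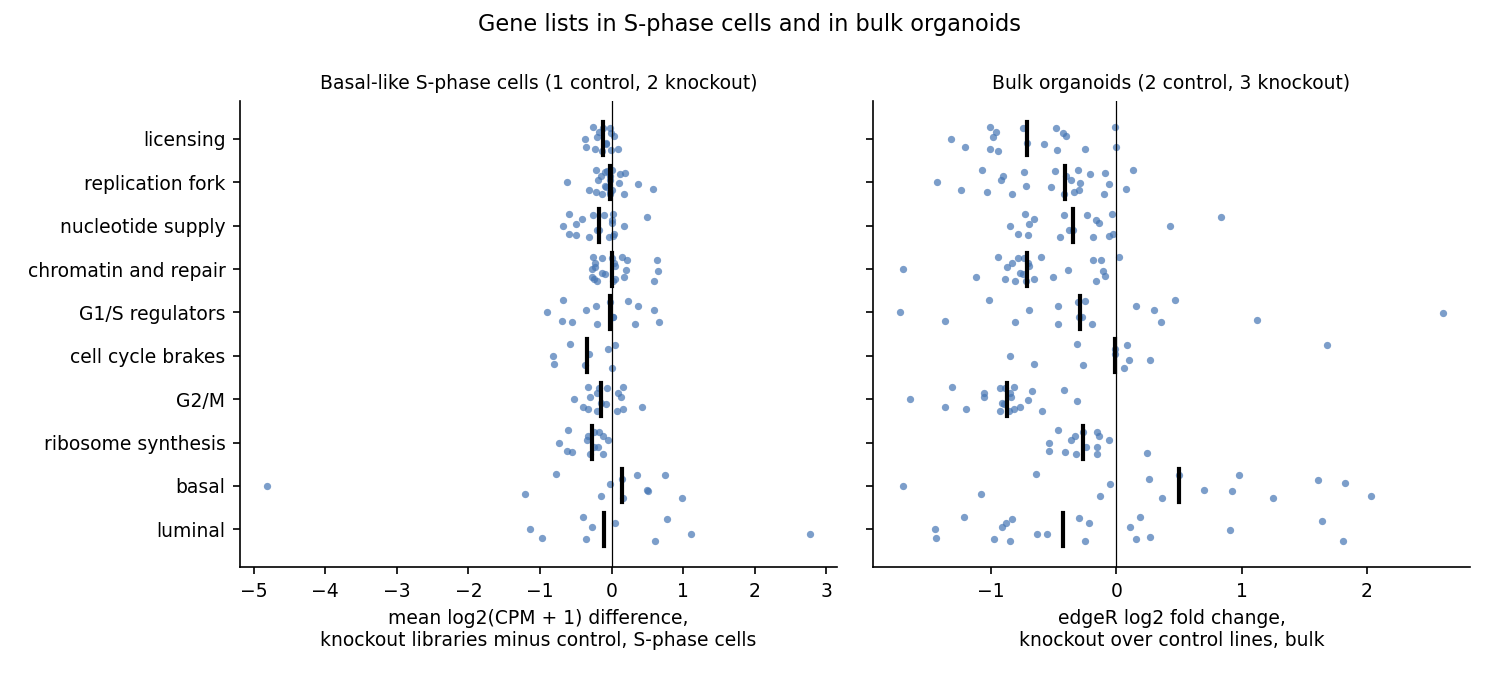
Each point is a gene of a list, and black bars are list medians, with the mean log2 difference of the 2 SOX4 KO libraries from control in S-phase cells at left and the log2 fold change of bulk SOX4 KO over control lines at right, on separate scales. The 4 replication lists have medians between -0.18 and 0.01 in S-phase cells and between -0.72 and -0.34 in bulk.

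Among regulators of entry into S phase, Cdk4 was lower with SOX4 KO in cells and in bulk. Cdk4, the kinase that D cyclins activate to release E2F, was at 800 CPM in S-phase cells of GR17, with a 95% Poisson interval of 767 to 835. GR18 had 469 CPM (440 to 499) and GR19 had 393 CPM (364 to 423), so the intervals of both lay below that of control. Per cell, the median was 7.83 UMIs per 10000 in GR17, 4.44 in GR18 and 3.93 in GR19, and the upper quartiles of 5.75 and 4.73 in the SOX4 KO libraries lay below the lower quartile of 6.50 in control. In bulk, Cdk4 was at 260 and 345 CPM in control and 133, 177 and 139 CPM in SOX4 KO lines, which is -1.02 ± 0.20 on the log2 scale (edgeR adjusted p = 0.0418). That call was kept in 3 of 5 fits that leave out 1 line each and was lost without either control line. Cdk4 was likewise lower in G2 or M cells, at 761, 419 and 367 CPM. Of 15 G1/S regulators at 20 CPM or more, 4 were above and 7 below control in both SOX4 KO libraries, with a median of -0.02 and 0 past 2-fold in both. Cdc25a, the phosphatase that activates Cdk2, was at 47.6, 31.0 and 27.0 CPM, Cdk2 itself at 65.0, 47.0 and 41.4 CPM, and Myc at 54.1, 37.6 and 29.9 CPM. Rb1, the retinoblastoma protein, was at 14.5, 20.7 and 27.0 CPM.

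The D cyclin Ccnd1 rose in bulk but had overlapping intervals in S-phase cells, while Ccnd2 lay above control in cells and in bulk. Ccnd1 was at 940, 951 and 907 CPM in S-phase cells, with overlapping intervals of 904 to 977, 910 to 993 and 862 to 953 CPM. In bulk it was at 537 and 468 CPM in control and at 1039, 943 and 1300.4 CPM in SOX4 KO lines, and it rose by 1.12 ± 0.22 on the log2 scale (edgeR adjusted p = 0.0376). Ccnd2 was at 86.8, 121 and 97.7 CPM in S-phase cells, while in bulk it was at 35.5 and 44.2 CPM in control and at 401, 127 and 201 CPM in SOX4 KO lines (2.61 ± 0.47, edgeR adjusted p = 0.0298). The difference between S-phase cells and bulk was not tested, since the assays differ and the labels do not tie the lines of one to those of the other.

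Among genes that restrain the cycle, Trp53 lay below control in the S-phase cells of both SOX4 KO libraries. Of 8 brakes at 20 CPM or more, 5 were below control in both libraries and 0 above, with a median of -0.34. Trp53, which halts damaged cells, was at 318, 168 and 193 CPM, with per-cell medians of 3.37, 1.68 and 1.77 UMIs per 10000. In bulk, Trp53 was at 87.2 and 93.8 CPM in control and at 78.5, 78.5 and 68.5 CPM in SOX4 KO lines (-0.27 on the log2 scale, edgeR adjusted p = 0.447). Cdkn1a, the inhibitor that the p53 protein induces, set the SOX4 KO libraries apart from each other, at 194, 181 and 67.8 CPM, with overlapping intervals for GR17 (178 to 211) and GR18 (163 to 199.5). Ccng1, also a p53 target, was at 238, 194 and 131 CPM. The only brake called in bulk was Cdkn2b, which inhibits Cdk4 and rose from 13.5 and 12.1 to 42.3, 28.1 and 52.0 CPM (1.68 ± 0.29, edgeR adjusted p = 0.0283). In S-phase cells Cdkn2b was at 13.1, 10.3 and 9.20 CPM, below the minimum for a difference.

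**Figure D4:**
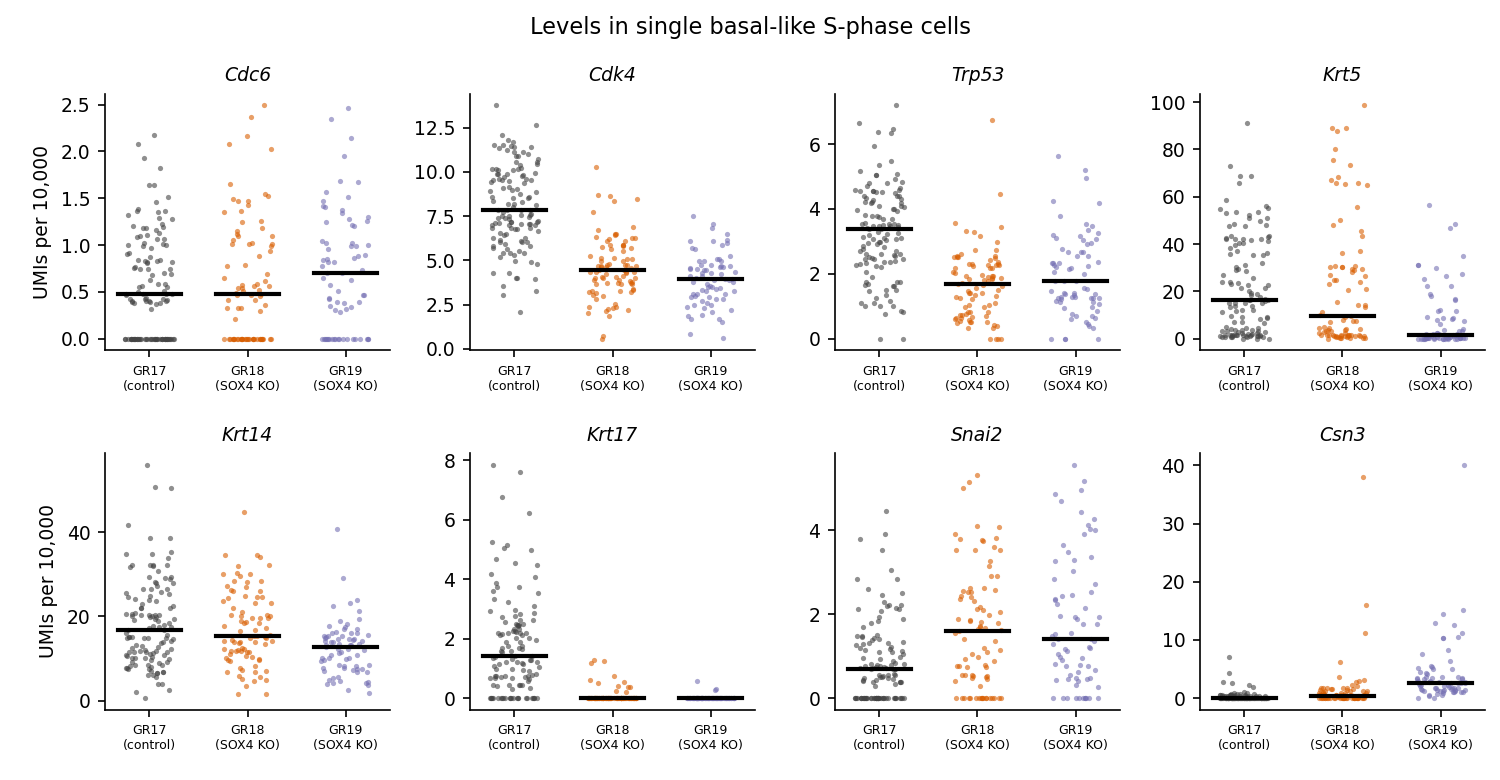
UMIs per 10000 UMIs of the cell for 8 genes in each S-phase cell (125 cells of GR17, 87 of GR18 and 73 of GR19), with black bars at the medians. Cdc6 has medians of 0.48, 0.48 and 0.71, Cdk4 of 7.83, 4.44 and 3.93, and Krt17 of 1.41, 0 and 0.

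The basal character of the S-phase cells differed between libraries gene by gene. Of 12 basal genes outside the rule at 20 CPM or more, 7 were above and 2 below control in both SOX4 KO libraries, with a median of 0.15. The median was 0.39 with thinned cells and 0.26 at 50 CPM or more. In bulk 5 of 15 basal genes rose and 1 fell, beside 4.1% of all genes called higher and 2.17% called lower. Of fits that leave out 1 line each, the Sparc call was kept in 1 of 5 and the Jag2 call in 2. The calls of Oxtr, Snai2 and Vim were kept in 3. Snai2, a repressor of epithelial genes found in basal cells, was at 88.7 CPM in GR17, with an interval of 77.9 to 100.5. Both SOX4 KO libraries lay above it, with 173 CPM for GR18 (156 to 192) and 181 CPM for GR19 (161 to 202). Its bulk levels were 24.3 and 18.3 CPM in control and 58.2, 57.2 and 36.6 CPM in SOX4 KO lines, a rise of 1.25 ± 0.27 on the log2 scale (edgeR adjusted p = 0.0491). Trp63, the master factor of basal cells, was at 61.0, 103 and 103 CPM, and its bulk log2 fold change of 0.98 was not called (edgeR adjusted p = 0.107). Itgb4, the integrin of hemidesmosomes, was at 470, 663 and 545 CPM. Lgals1, a galectin, went the other way at 541, 300.4 and 181 CPM, and its bulk change of -0.64 on the log2 scale was not called (edgeR adjusted p = 0.27). The basal gene that fell in bulk was Lgr5, a receptor of stem and basal cells (-1.71, edgeR adjusted p = 0.0474), which had 0 to 1.82 CPM in S-phase cells.

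Keratins of the S-phase cells set GR19 apart from GR18. Krt5, given above in CPM, had per-cell medians of 16.4, 9.67 and 1.70 UMIs per 10000. As a gene of the rule it is given as a description. Bulk Krt5 was at 191 and 47.8 CPM in control and at 410, 472 and 112 CPM in SOX4 KO lines. The groups overlapped, and the log2 fold change of 1.47 had the other sign and was not called (edgeR adjusted p = 0.312). Bulk Krt14 was at 235 and 240 CPM in control and at 107, 601 and 187 CPM in SOX4 KO lines (edgeR adjusted p = 0.834). Krt17, a keratin of basal and stressed epithelium, was at 174 CPM (159 to 191) for GR17, 10.8 CPM (6.85 to 16.2) for GR18 and 2.30 CPM (0.627 to 5.89) for GR19, the largest deficit in both SOX4 KO libraries. In bulk Krt17 was at 11.6 and 7.97 CPM in control and 8.09, 5.76 and 0.239 CPM in SOX4 KO lines, and the groups overlapped (edgeR adjusted p = 0.536). Id4, a basal inhibitor of differentiation factors, was at 130, 137 and 41.4 CPM, so the deficit was seen in GR19. Within each library Krt5 and Krt14 went together across S-phase cells, with Spearman's rho of 0.65, 0.60 and 0.45 over 125, 87 and 73 cells. Both genes chose the cells and share the depth of a well. For Krt5 and Krt17 rho was 0.41, 0.14 and 0.16.

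Luminal genes were mixed in these cells, with 4 of 10 genes above control in both SOX4 KO libraries, 5 below and a median of -0.11. This median was 0.08 with mitochondrial genes and Rn45s left out of the total and 0.60 with cutoffs set within each library, so it has no stable direction. In bulk 1 of 20 luminal genes, the estrogen receptor Esr1, rose (1.64, edgeR adjusted p = 0.039), and Xbp1, Cited1 and Cd24a fell. The Xbp1 call was kept in 4 of 5 fits that leave out 1 line each. Over all genes, 4.1% were called higher and 2.17% lower. Csn3, a milk casein, was at 33.4, 125 and 436 CPM. The other SOX4 KO excess past 2-fold was Prlr, the prolactin receptor, at 35.6, 73.8 and 81.6 CPM. Prlr stayed past 2-fold in 10 of 13 alternative settings. Its bulk log2 fold change ran from -0.32 to 0.44 over the fits that leave out 1 line each. Raw bulk reads of Csn3 were 1300 and 1362 in control and 2841, 459 and 9551 in SOX4 KO lines, and the groups overlapped. Foxa1, a factor of hormone-responsive luminal cells, was at 156, 71.5 and 69.6 CPM and was the luminal gene at least 2-fold lower in both. Cd24a, a surface protein of luminal cells, was at 768, 378 and 401 CPM, just short of 2-fold in GR19, and it fell in bulk from 1008 and 1176 CPM to 507, 616 and 653 CPM (-0.88 ± 0.20, edgeR adjusted p = 0.0547). Lcn2, an iron-binding lipocalin of secretory cells, was the luminal gene with the highest level, at 2240, 3858 and 3785 CPM.

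The other classes of cells are compared with the same control library, so their values stand beside those of the S-phase cells and are no independent support. At least 2-fold higher in both SOX4 KO libraries were 99 of 6273 genes (1.58%) in G2 or M cells. The counts were 173 of 6222 (2.78%) in resting basal-like cells and 109 of 6219 (1.75%) in luminal-like cells. At least 2-fold lower in these classes were 23 (0.367%), 82 (1.32%) and 45 (0.724%) genes. Krt17, described above, was at 180, 4.00 and 4.78 CPM in G2 or M cells of GR17, GR18 and GR19. Isg15, described below, was at 9.43, 106 and 149 CPM there. Of the 84 genes higher in S-phase cells, 58 were also at least 2-fold higher in both SOX4 KO libraries in G2 or M cells. In resting basal-like cells 57 were, and in luminal-like cells 50. Of the 23 lower genes, 15, 15 and 13 were also at least 2-fold lower in these classes. Most of these differences were therefore not particular to S-phase cells. None of the genes 2-fold apart in S-phase cells and at 20 CPM or more in luminal-like cells was at least 2-fold the other way in both SOX4 KO libraries there.

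The 10 genes furthest below control in both SOX4 KO libraries were Krt17, Aldh3a1, Tuba1a, Tmem98, Ttyh3, Lbh, Gstm1, Cbx2, Dlx2 and Tubb2b. Tuba1a and Tubb2b are tubulins, and Tuba1a was at 221, 38.5 and 33.9 CPM. Aldh3a1, an aldehyde dehydrogenase, was at 108, 15.5 and 14.9 CPM, whereas its bulk levels of 4.40 and 1.99 CPM in control and 1.57, 5.76 and 9.82 CPM in SOX4 KO lines overlapped. Ttyh3, a membrane protein, was at 55.6, 6.58 and 13.8 CPM and fell in bulk from 72.0 and 63.9 CPM to 24.8, 18.7 and 25.4 CPM (-1.55 ± 0.20, edgeR adjusted p = 0.0125), a call kept whichever line was left out. Tmem98 and Cbx2, a Polycomb subunit, fell in bulk as well (-1.79 and -1.24, edgeR adjusted p = 0.018 and 0.0626), and the Tmem98 call was lost without WT3 only. Of the 23 genes lower in the cells, all were tested in bulk, 18 had a negative fold change, 6 were called lower and 0 higher, beside 2.17% of all genes called lower.

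The 10 genes furthest above control were Tfap2b, Clca2, Irf7, Ifi27l2a, Isg15, Ifi44, Oasl2, Csn1s1, Zbp1 and Car2. Tfap2b, an AP-2 transcription factor, had 0 UMIs in S-phase cells of GR17 and 131 and 144 UMIs in GR18 and GR19, or 61.6 and 82.8 CPM. Against a floor of 3 UMIs over the GR17 cells this was at least 56.5-fold and 76.0-fold higher. In bulk it had 0 reads in both control lines and 36.5, 33.8 and 35.4 CPM in H7, M4 and H4, at least 43.7-fold above a floor of 3 reads per library, and was called (edgeR adjusted p = 0.00118), with each line left out in turn too. Clca2, a protein of basal and skin epithelium, had 0, 74 and 128 UMIs, at least 31.9-fold and 67.5-fold higher by the same floor. Its bulk counts of 8 and 1 reads in control and 9, 4 and 18 in SOX4 KO lines were under the filter. Csn1s1, a casein, was at 40.3, 297 and 382 CPM and rose in bulk by 4.62 ± 0.45 on the log2 scale (edgeR adjusted p = 0.00657), and this call too was kept whichever line was left out.

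The interferon-induced genes of this group did not show the same direction in bulk. Isg15, a ubiquitin-like protein, was at 9.08, 151 and 94.9 CPM in S-phase cells, and Irf7, a factor that amplifies interferon signalling, at 2.91, 71.9 and 51.2 CPM. The SOX4 KO libraries lay above the control library for both. In bulk Isg15 was at 347 and 199.5 CPM in control and at 204, 61.9 and 71.4 CPM in SOX4 KO lines. Irf7 was at 1151 and 1084 CPM in control and at 1057, 202 and 357 CPM. M4 and H4 lay below both control lines for both genes, and neither was called (edgeR adjusted p = 0.217 and 0.385). Ifi27l2a, Ifi44, Oasl2 and Zbp1 also had bulk log2 fold changes below 0, between -1.21 and -0.52, and none was called. Levels of UMI and read libraries are on different scales, and which lines the single cells share with bulk is not given in the labels. Of the 84 genes higher in the cells, 76 were tested in bulk, 51 had a positive fold change, 24 were called higher and 0 lower, beside 4.1% of all genes called higher.

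**Figure D5:**
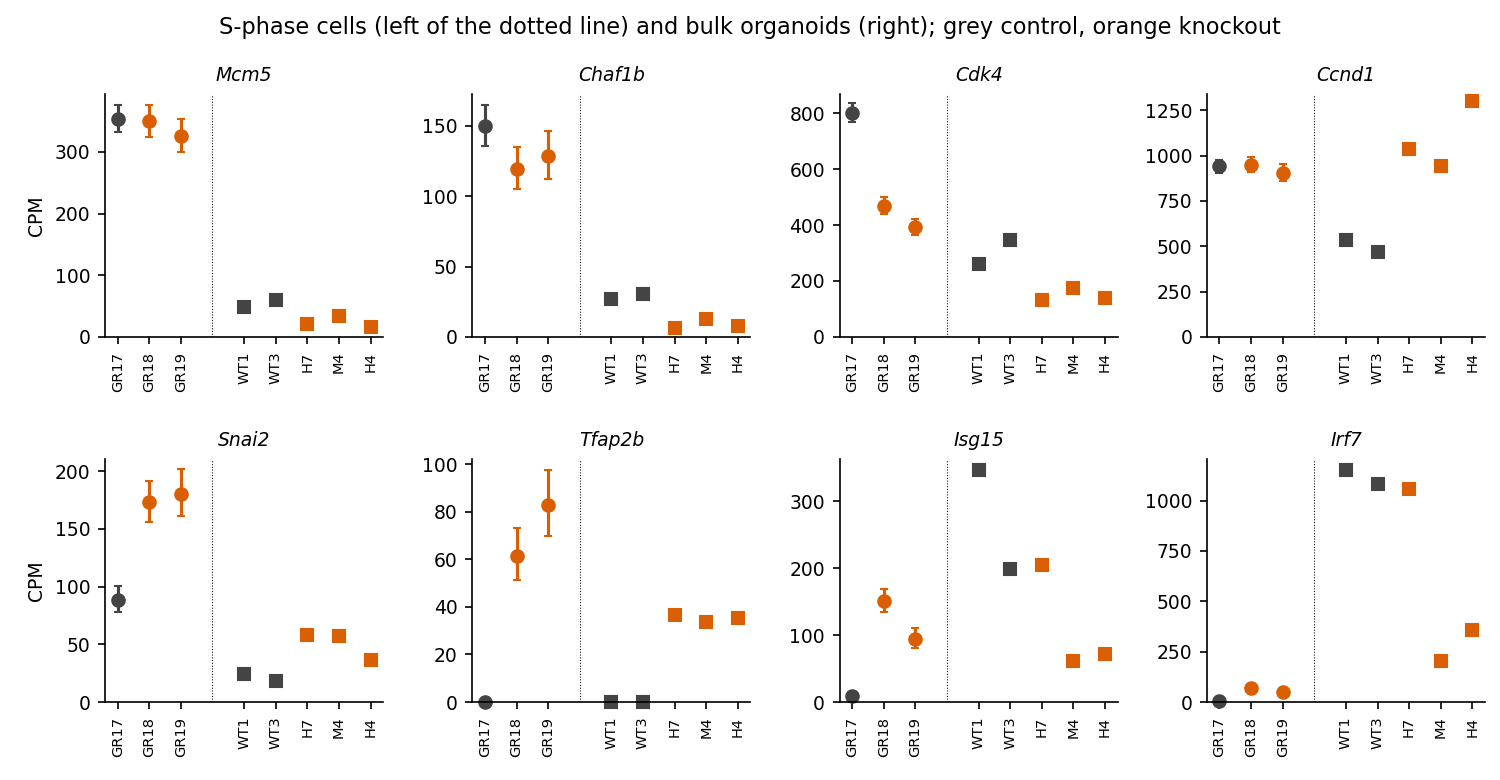
CPM of 8 genes in the S-phase cells of each library (circles, with 95% Poisson intervals) and normalized CPM in each bulk line (squares), with control in grey and SOX4 KO in orange. Mcm5 is a gene of the rule, so its level in the cells (325 to 354 CPM) is partly set by the choice, while Cdk4 and Snai2 differ the same way in both, and Isg15 and Irf7 are above control in SOX4 KO cells but not in bulk.

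The SOX4 KO libraries also differed from each other. In S-phase cells 142 genes were at least 2-fold higher than control in GR18 and 129 in GR19, of which 84 were shared, and 53 and 69 were lower, of which 23 were shared. Between them, 30 genes were at least 2-fold higher in GR19 than in GR18 and 27 lower. Csn3, Id4 and Cdkn1a, described above, are examples of genes for which GR18 and GR19 lay further from each other than their counting intervals.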

How the data were processed

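The tables that the authors deposited hold raw read counts by gene for bulk RNA and raw UMI counts by gene and well for single cells, neither of them normalized. STAR 2.4.2a, HTSeq, NCBIM37 and mm9 are named in the submitters' processing notes, without saying which files they belong to. Alignment that was not unique and other reads on no gene took 71.6 to 83.9% of bulk read counts and stayed out, which left 3050323 to 4678497 reads on genes.

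Wells with fewer than 1000 UMIs outside the spike-ins were left out (15, 15 and 22 wells), which kept 7714119 to 8296953 UMIs per library. No doublet caller was run. Within each library the UMIs of all cells of a class were added up, scaled to CPM and compared as log2(CPM + 1), which understates differences of low genes, for genes at 20 CPM or more on average. Bulk counts were tested with edgeR 4.0.16 in R 4.3.3 (filterByExpr, TMM, glmQLFit, glmQLFTest, two-sided, Benjamini-Hochberg over 11682 genes, called under 0.1), with DESeq2 1.42.0 as an alternative. Standard errors are the log2 fold change divided by the root of F. Symbols were matched by Ensembl ID for 36345 of 38293 bulk genes. Counts of genes with near-identical copies, such as tubulins and caseins, are uncertain. Python 3.11.15, pandas 2.3.3 and scipy 1.17.1 did the rest.

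Named were the genes of the rule, members of lists, Sox4 and the 10 genes with the largest difference in each direction between control and both SOX4 KO libraries, or between S-phase and G2 or M cells in all 3 libraries. Predicted genes, Rn45s and mitochondrial genes were skipped. The members and lists were chosen with earlier results of these data known. The steps were run on simulated data. The 2-fold rule recovered 200 of 200 genes changed 4-fold with 0 other calls among 6017 genes. Those counts held Poisson error only, without differences between lines, and only genes with high levels were changed. That result therefore checks the code and does not measure false calls in the real libraries. For bulk, edgeR recovered 193 of 200 genes changed 3-fold with 29 other calls among 11540. Replicates are separate organoid lines, nothing pairs them, and p-values measure the spread between these lines.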

Additional observations from a re-analysis of the deposited data

How the results depend on the processing

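The order of the libraries in their share of S-phase cells was kept in every alternative, and shares moved where the definition changed: 26.3%, 16.5% and 9.12% in GR17, GR18 and GR19 with the lower 50% of the keratin ratio, 19.8%, 16.5% and 15.5% with the lowest 33.3% of the phase ratio, and 26.8% and 25.1% in GR17 and GR19 with cutoffs set within each library. The counts of genes 2-fold higher and lower were 153 and 52 with thinned cells, 48 and 13 with a pseudocount of 10, 34 and 8 at 50 CPM or more, and 129 to 142 and 53 to 69 with 1 SOX4 KO library left out. The median of S-phase genes was -0.066 thinned, -0.078 at 2000 UMIs, -0.077 without wells over 2 times the median, -0.070 with the lower keratin range, -0.060 with the lowest phase range, -0.057 without mitochondrial genes and Rn45s, -0.072 with a pseudocount of 10, -0.071 at 50 CPM, -0.073 with the mean over cells, -0.22 with cutoffs within libraries, and -0.082 to -0.081 with 1 SOX4 KO library left out. The basal median was 0.39 thinned, 0.23 with the lower keratin range, 0.11 with the lowest phase range, 0.18 with cutoffs within libraries and without mitochondrial genes and Rn45s, 0.26 at 50 CPM, 0.20 without cells richer in luminal keratin (chosen after seeing the data), and 0.14 to 0.16 with 1 library left out. The luminal median was 0.60 with cutoffs within libraries, 0.078 without mitochondrial genes and Rn45s, and -0.19 to 0.078 with 1 library left out. Bulk calls, higher, lower and lower among S-phase genes, were 1008, 678 and 24 with every counted gene kept, 241, 113 and 2 at an adjusted p under 0.05, and 30 to 624, 26 to 382 and 0 to 24 with 1 line left out. With a lone control line its spread is assumed to be that of the SOX4 KO lines. The cause was not tested. Of 281 alternatives for 23 named genes 2-fold apart in the cells, 273 stayed past 2-fold and 0 turned, and of 396 for 44 genes called in bulk, 131 lost the call and 0 turned. No paired analysis was possible because the lines carry no shared replicate number.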

Other observations

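Genes of ribosome synthesis, a list that also holds Odc1 and Srm of polyamine synthesis, were lower in S-phase cells of both SOX4 KO libraries. Of 15 listed genes 14 averaged at least 20 CPM, and all 14 were below control in GR18 and in GR19, with a median difference of -0.28 beside 0.01 for all genes, of which 36.3% were below control in both, although 0 were past 2-fold. The list summed to 7027, 6296 and 5970 CPM in GR17, GR18 and GR19. Fbl, a methyltransferase of ribosomal RNA, was at 192, 129 and 122 CPM, and Odc1, the entry enzyme of polyamine synthesis, was at 185, 126 and 113 CPM. The ratios to control were 0.896 and 0.850 there, 0.825 and 0.761 in G2 or M cells and 0.823 and 0.749 in resting basal-like cells, so the deficit is not particular to S-phase cells. In luminal-like cycling cells the same list summed to 6461, 6533 and 6586 CPM, ratios of 1.01 and 1.02 to control. In bulk 14 of 15 genes had a negative fold change with a median of -0.27, beside 5741 of all 11682 genes tested, and edgeR called 0. At an unadjusted edgeR p under 0.05, 4 fell and 0 rose, beside 897 lower and 1216 higher of all 11682 genes.

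Immediate early and heat shock genes, which can rise when cells are separated, had no shared direction in S-phase cells, with 2 of 8 above control and 3 below in both SOX4 KO libraries and a median of -0.03. Fos was at 433, 557 and 342 CPM and Jun at 634, 618 and 592 CPM.

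Sox9, another factor of the SOX family, was at 798, 1179 and 1029 CPM in S-phase cells. In bulk it was at 697 and 634 CPM in control and at 683, 614 and 718 CPM in SOX4 KO lines, and the groups overlapped (edgeR adjusted p = 0.979).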
